A study of Mus musculus with 12 samples.

Results

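Erythroid transcription factors are the DNA-binding proteins and cofactors that commit blood progenitors to the red cell lineage and drive their maturation. The 7 genes described here were chosen by name, as the rows of both deposited tables whose symbol is Gata1, Klf1, Zfpm1, Nfe2, Gfi1b, Ldb1 or Bcl11a, and they were found among 24533 gene rows in each table. All 7 passed the authors' filter on low values in both tables. The series profiled RNA from bone marrow of C57BL/6 mice in 12 libraries, in 4 groups of 3. LSK cells, a fraction defined by surface markers as lineage-negative, Sca-1 positive and c-Kit positive that holds the stem cells, were sequenced with the genotype labels U2af1KO and WT, and so were lineage-negative marrow cells (LinNeg). U2af1 encodes a splicing factor subunit that binds the AG at the end of introns. The LSK libraries of both genotypes also carry the tag BMT, whose meaning is not given, and the LinNeg libraries do not. The labels name no Cre driver, age or induction scheme, and do not say whether animals were pooled or replicates came from separate animals, so p-values measure only how far these libraries spread, and that spread may be technical.

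GATA1 is the zinc finger protein that red cell precursors cannot do without, and it works with a cofactor that does not bind DNA itself, FOG1, the product of Zfpm1. KLF1 switches on adult globin, membrane and heme genes, and GFI1B represses genes of other fates. LDB1 joins GATA1 and its partners into one complex that brings distant enhancers to promoters. NFE2 encodes the large subunit of NF-E2, which acts in red cells and is most needed for platelet release by megakaryocytes, and BCL11A silences embryonic and fetal globin genes and is also needed for B cells and plasmacytoid dendritic cells.

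The targeted gene was higher under the KO label. The U2af1 row stood at a log2 fold change of 0.61 (SE, the standard error, 0.06) in the authors' deposited table for LSK and of 0.65 (SE 0.19) in the authors' deposited table for LinNeg. Reads from exons that a deletion leaves in place enter such a gene-level value, and the genotype labels are not checked by it. The sexes of the LSK groups differed: Y-linked Ddx3y had a log2 fold change of -9.21 and Xist one of 7.49 in the authors' deposited table for LSK. In the authors' deposited table for LinNeg, Xist stood at 10.02 with a standard error of 1.81 and Ddx3y at -0.79 with a standard error of 1.64, both standard errors far above the median of 0.28 over all genes tested. Sex and genotype cannot be told apart in LSK. In LinNeg the mean normalized count of Xist, derived from the deposited mean and fold change, was 41468 under the KO label and 40 under the WT label. That of Ddx3y was 1255 under KO and 2165 under WT. Sex was thus uneven between the labels in LinNeg too, and its part in the LinNeg fold changes was not tested. Reads per library were not analysed here, and depth is unknown.

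Of the 7 factors, 6 were higher and 1 lower in U2af1KO than in WT LSK libraries, at an adjusted p under 0.05 by DESeq2, run by the authors. In LinNeg 5 were higher, 1 was lower and 1 was not called. Across all genes tested, 61.6% were called in LSK, 32.4% as higher and 29.2% as lower, and 41.4% were called in LinNeg, 22.1% as higher and 19.3% as lower. The median log2 fold change of the 7 factors was 0.54 in LSK and 1.42 in LinNeg, against 0.04 and 0.16 over all genes tested. Called the same way in both tables were 6 of the 7, namely Klf1, Gata1, Gfi1b, Zfpm1 and Ldb1 as higher and Nfe2 as lower, while 26.3% of the genes tested in both tables were called the same way. Beyond a change of 2-fold, tested from the deposited estimates and standard errors, 3 factors passed in LSK (Klf1, Gata1 and Gfi1b) and 2 in LinNeg (Klf1 and Zfpm1), against 11.4% and 8.01% of all genes.

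**Figure D1:**
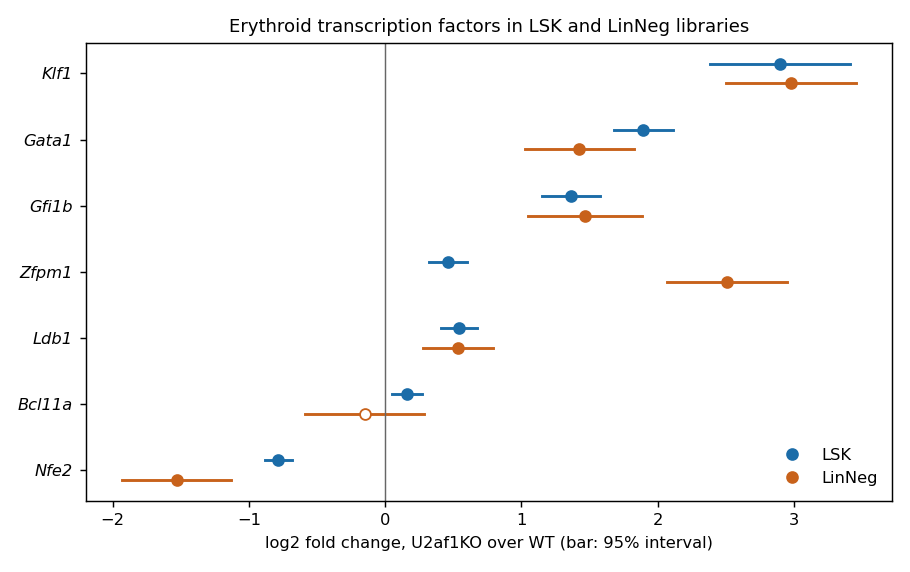
Log2 fold change of U2af1KO over WT libraries for each of the 7 factors, with LSK above LinNeg in each pair; bars are 95% intervals and the open point is not called. Klf1 lies near 3 in both populations, Nfe2 is below 0 in both, and the 2 intervals of Zfpm1 lie apart.

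The values below come as means of normalized counts per label, derived from the mean over both labels and the fold change for 3 libraries on each side, because values per library were not used here. In bulk libraries fewer cells of a type and less RNA per cell cannot be told apart. Gata1 (ENSMUSG00000031162.14) lies on chromosome X from 7959260 to 7978071, minus strand, in mm10. Its derived mean was 5191 in U2af1KO LSK libraries, against 1396 in WT LSK libraries. In LinNeg it was 5508 under the KO label and 2053 under the WT label. Gata1 was thus higher under the KO label in both populations. The ratio was 3.72 in LSK (95% interval from 3.20 to 4.31) and 2.68 in LinNeg (95% interval from 2.03 to 3.54). The log2 fold change was 1.89 (SE 0.11, adjusted p = 2.43e-65 by DESeq2) in the authors' deposited table for LSK. The authors' deposited table for LinNeg gave 1.42 (SE 0.20, adjusted p = 4.8e-11 by DESeq2). Because the gene is X-linked and the LSK groups differ in sex, the other X-linked genes were set beside it. The 565 tested X-linked genes had a median log2 fold change of -0.04 in LSK, against 0.05 for 15488 autosomal genes. In LinNeg the 564 tested X-linked genes had a median of 0.13, against 0.16 for 16108 autosomal genes. These medians describe the chromosome as a whole and cannot show whether sex enters the value of Gata1, which was not tested.

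Klf1 (ENSMUSG00000054191.8, chromosome 8 from 84901928 to 84905291, plus strand, mm10) had the highest fold change of the 7 in both populations. Its derived mean was 5619 in U2af1KO LSK libraries and 754 in WT LSK libraries, a ratio of 7.45 with a 95% interval from 5.21 to 10.7. In LinNeg the derived mean was 7446 under the KO label and 945 under the WT label, a ratio of 7.88 with an interval from 5.67 to 11.0. The authors' deposited table for LSK gave a log2 fold change of 2.90 (SE 0.26, adjusted p = 3.06e-27 by DESeq2), and the authors' deposited table for LinNeg gave 2.98 (SE 0.24, adjusted p = 1.21e-32 by DESeq2). This fold change was above that of 93.4% of all genes tested in LSK and of 92.0% in LinNeg.

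Gfi1b (ENSMUSG00000026815.14, chromosome 2 from 28609450 to 28621982, minus strand, mm10) was higher under the KO label in both. The derived mean was 4039 in U2af1KO LSK libraries and 1569 in WT LSK libraries, and 3686 in U2af1KO LinNeg libraries and 1334 in WT LinNeg libraries. The log2 fold change was 1.36 (SE 0.11, adjusted p = 5.24e-34 by DESeq2) in the authors' deposited table for LSK and 1.47 (SE 0.21, adjusted p = 9.67e-11 by DESeq2) in the authors' deposited table for LinNeg.

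Zfpm1 (ENSMUSG00000049577.15, chromosome 8 from 122282141 to 122337251, plus strand, mm10) differed most between the populations. Its derived mean was 11860 in U2af1KO LSK libraries and 8626 in WT LSK libraries, a ratio of 1.37. In LinNeg it was 12266 under the KO label and 2153 under the WT label, a ratio of 5.70. The authors' deposited table for LSK gave a log2 fold change of 0.46 (SE 0.07, adjusted p = 2.66e-10 by DESeq2), and the authors' deposited table for LinNeg gave 2.51 (SE 0.23, adjusted p = 5.56e-27 by DESeq2). The FOG1 transcript was therefore raised in both populations, and the rise in LinNeg was the larger in size.

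Upstream sequences of the 4 factors that rose most in at least 1 population are shown because GATA1 and KLF1 are known to bind promoters of erythroid genes. The RefSeq table (build GRCm38.p6, the assembly called mm10) held windows for 6 of the 7 genes, 8 windows in all, and Nfe2 was not among them. The 250 bases before each start were searched on both strands for 5 motifs. The GATA motif was AGATAA or, as an equal form of the site that GATA factors bind, TGATAA. The CACCC box, which KLF factors bind, was CCNCNCCC. The NF-E2 motif was TGA and TCA with 1 base of any kind between them. The core of the GFI1 and GFI1B site was AATCAC. The E-box, which TAL1 dimers bind, was CAGATG or, in the form of other helix-loop-helix dimers, CAGCTG. Each sequence runs 5′ to 3′ on the gene's strand, with GATA motifs, CACCC boxes and E-boxes on either strand in capitals. The windows are chrX:7967911-7968160, minus strand, for Gata1, chr8:84901732-84901947, plus strand, for Klf1, chr2:28621983-28622232, minus strand, for Gfi1b and chr8:122281891-122282140, plus strand, for Zfpm1. The Klf1 window is shortened because GENCODE M21 places the gene's start upstream of the RefSeq one.
Gata1: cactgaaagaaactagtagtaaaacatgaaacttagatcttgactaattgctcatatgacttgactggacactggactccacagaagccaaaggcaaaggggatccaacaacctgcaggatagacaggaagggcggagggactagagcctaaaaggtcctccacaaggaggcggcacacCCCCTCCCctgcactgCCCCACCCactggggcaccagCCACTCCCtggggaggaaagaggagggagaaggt
Klf1: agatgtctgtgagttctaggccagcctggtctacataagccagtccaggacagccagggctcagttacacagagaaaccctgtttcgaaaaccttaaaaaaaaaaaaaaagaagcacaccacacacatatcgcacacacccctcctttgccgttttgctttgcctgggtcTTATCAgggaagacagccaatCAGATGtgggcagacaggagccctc
Gfi1b: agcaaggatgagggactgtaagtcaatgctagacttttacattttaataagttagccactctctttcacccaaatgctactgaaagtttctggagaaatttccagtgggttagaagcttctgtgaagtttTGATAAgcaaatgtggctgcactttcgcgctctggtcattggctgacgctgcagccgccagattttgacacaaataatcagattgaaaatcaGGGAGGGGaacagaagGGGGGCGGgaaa
Zfpm1: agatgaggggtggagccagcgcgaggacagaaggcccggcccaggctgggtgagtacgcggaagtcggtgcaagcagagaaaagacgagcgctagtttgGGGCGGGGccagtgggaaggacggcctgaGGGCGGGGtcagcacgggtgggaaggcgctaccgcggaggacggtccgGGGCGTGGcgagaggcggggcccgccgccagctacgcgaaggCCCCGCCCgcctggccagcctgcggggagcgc
The Klf1 window held 1 GATA motif, read as TTATCA on the gene's strand from 80 to 75 bases before the RefSeq start, and 1 E-box from 59 to 54 bases before it. The Gfi1b window held 1 GATA motif, from 120 to 115 bases before the start, and 2 CACCC boxes. Gata1 had 3 CACCC boxes and Zfpm1 had 4, with no GATA motif in either window. Of all 32851 windows in the table, 16.6% held a GATA motif, 45.9% a CACCC box, 25.5% an E-box, 6.75% an NF-E2 motif and 9.14% a GFI1 core. The NF-E2 motif and the GFI1 core were in none of the 8 windows. Beyond these 4 genes, the Bcl11a window held 8 matches to the CACCC box, some overlapping, and 1 of the 3 Ldb1 windows held 2 GATA motifs. These matches are letters in a window and say nothing of binding.

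Ldb1 (ENSMUSG00000025223.15, chromosome 19 from 46031570 to 46045214, minus strand, mm10) was modestly higher. Its derived mean was 9746 in U2af1KO LSK libraries and 6701 in WT LSK libraries, and 7328 in U2af1KO LinNeg libraries and 5061 in WT LinNeg libraries. The log2 fold change was 0.54 (SE 0.07, adjusted p = 5.79e-15 by DESeq2) in the authors' deposited table for LSK and 0.53 (SE 0.13, adjusted p = 0.000215 by DESeq2) in the authors' deposited table for LinNeg. Of its exon bases 3.84% overlap those of Pprc1 on the other strand, and whether strand was used in counting is not given in the sources used here. For the other 5 factors besides Bcl11a, no exon overlapped another gene's in GENCODE M21, and 2.40% of the exon bases of Bcl11a overlap those of an antisense gene absent from the tables.

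Nfe2 (ENSMUSG00000058794.12, chromosome 15 from 103248212 to 103258403, minus strand, mm10) was the factor that fell. Its derived mean was 4483 in U2af1KO LSK libraries and 7716 in WT LSK libraries, a ratio of 0.581. In LinNeg it was 2495 under the KO label and 7209 under the WT label, a ratio of 0.346. The authors' deposited table for LSK gave a log2 fold change of -0.78 (SE 0.05, adjusted p = 1.66e-55 by DESeq2), and the authors' deposited table for LinNeg gave -1.53 (SE 0.20, adjusted p = 8.74e-13 by DESeq2).

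Bcl11a (ENSMUSG00000000861.15, chromosome 11 from 24078056 to 24174123, plus strand, mm10) stood nearest to no change. The derived mean was 7985 in U2af1KO LSK libraries and 7145 in WT LSK libraries, and 4273 in U2af1KO LinNeg libraries and 4744 in WT LinNeg libraries. The log2 fold change was 0.16 (SE 0.06, adjusted p = 0.00836 by DESeq2) in the authors' deposited table for LSK. That call ended when the fold changes were recentred on the median gene (adjusted p = 0.0582) or on equal totals (adjusted p = 0.497). In the authors' deposited table for LinNeg it was -0.15 (SE 0.22, adjusted p = 0.629 by DESeq2), with a 95% interval from -0.59 to 0.29. Recentring on equal totals put this value at 0.01. Equal totals, here and below, leave out the row Rn45s. That row held 19.3% of the summed gene means in LSK and 13.3% in LinNeg.

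Set side by side per kilobase of exon, the order of the levels differed between the labels. Under the KO label Klf1 had the highest derived level in both populations, at 3672 normalized counts per kilobase in LSK and 4867 in LinNeg, followed by Zfpm1 at 3386 in LSK and 3501 in LinNeg. Under the WT label Nfe2 had the highest level in both populations, at 2582 per kilobase in LSK and 2413 in LinNeg. Klf1 stood at 493 per kilobase in WT LSK libraries, the lowest of the 7, and at 618 in WT LinNeg libraries. Bcl11a was lowest in the other 3 groups, at 606 per kilobase in U2af1KO LSK libraries, 324 in U2af1KO LinNeg libraries and 360 in WT LinNeg libraries. Its length counts every annotated exon, 13175 bases in all, and a cell that uses a shorter form would have a higher level per kilobase. Derived levels have no error of their own, so neighbours in this order were not tested, and levels are not compared between the tables, which were normalized separately.

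**Figure D2:**
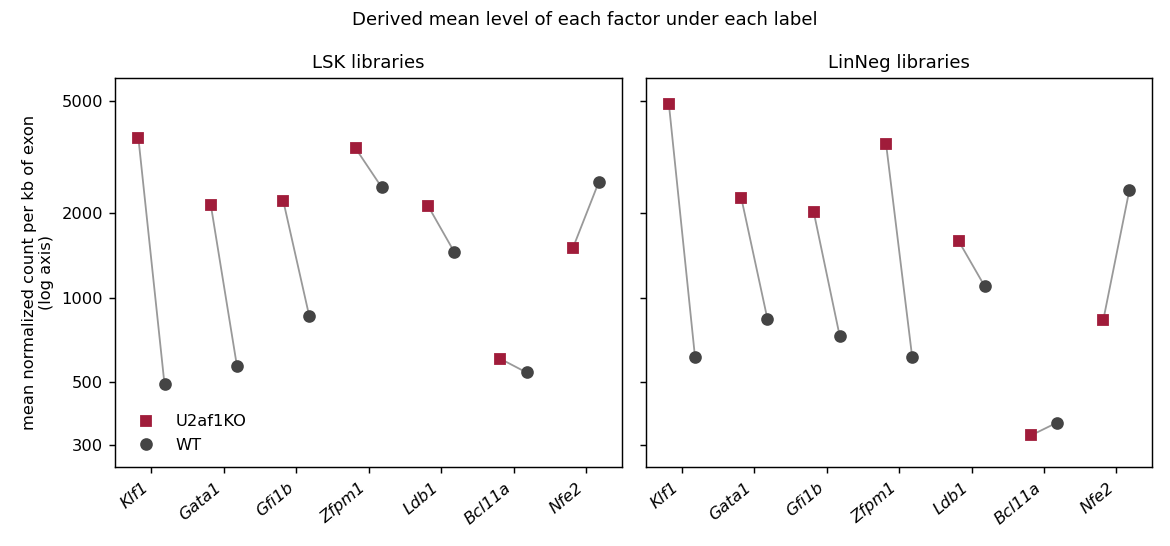
Derived mean normalized count per kilobase of exon (log axis) of each factor, U2af1KO as squares left of WT as circles, for LSK and LinNeg libraries. Klf1 is the highest square and Nfe2 the highest circle in both panels.

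Fold changes have errors and their order can be read against them. In LSK the order was Klf1, Gata1, Gfi1b, Ldb1, Zfpm1, Bcl11a and Nfe2, and the 95% intervals of neighbours overlapped only for Ldb1 and Zfpm1. In LinNeg the order was Klf1, Zfpm1, Gfi1b, Gata1, Ldb1, Bcl11a and Nfe2, with overlapping intervals for Klf1 and Zfpm1, for Gfi1b and Gata1, and for Ldb1 and Bcl11a. The intervals treat the genes as if measured apart, and the covariance between genes of 1 library is not known.

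Among the 7 factors, the KO effect differed between the populations for Zfpm1 and Nfe2. The test was a two-sided normal test on the difference of the authors' DESeq2 fold changes. It was adjusted over 17397 genes, of which 28.3% were called, 15.5% with the LSK effect above and 12.8% with it below. Only the LSK libraries carry the tag BMT, and sex was spread differently over the labels in each population. Population, tag and sex therefore cannot be told apart in this or any later difference. For Zfpm1 the effect in LSK minus that in LinNeg was -2.05 on the log2 scale (SE 0.24, adjusted p = 1.85e-16). For Nfe2 the difference was 0.75 (SE 0.21, adjusted p = 0.00207), so its fall was smaller in LSK. Recentring both tables on equal totals without Rn45s kept the call for Zfpm1 and ended that for Nfe2 (difference 0.47, adjusted p = 0.0725). Totals that include Rn45s were not tried. Gata1 had a difference of 0.47 (SE 0.23, adjusted p = 0.121), which passed at an adjusted p of 0.0402 when both tables were recentred on the median gene. Differences for the other 4 did not pass, with 95% intervals from -0.78 to 0.62 for Klf1, from -0.57 to 0.37 for Gfi1b, from -0.28 to 0.29 for Ldb1 and from -0.14 to 0.76 for Bcl11a.

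**Figure D3:**
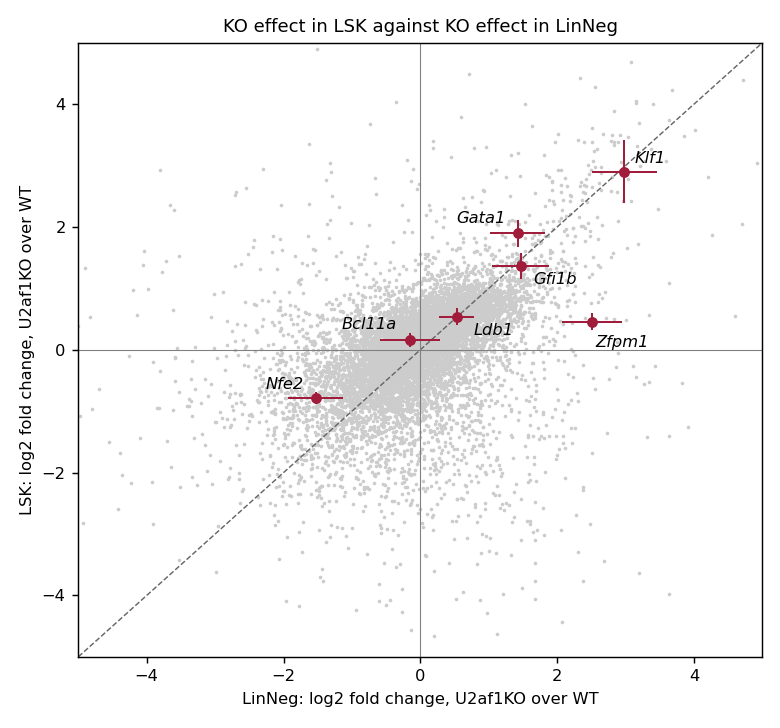
KO effect in LSK (vertical) against KO effect in LinNeg (horizontal), log2 fold change of U2af1KO over WT, for genes whose mean was 100 or more in each table (grey) and the 7 factors (red, 95% intervals); 39 of 10425 genes lie outside the axes. Zfpm1 is far below the dashed line of equal effects, and Klf1, Gfi1b and Ldb1 lie near it.

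Gata1, Klf1 and Gfi1b were also set against a rival or relative, per kilobase of exon. The ratio of Gata1 to Gata2, the factor that GATA1 replaces as red cells mature, was 2.28 in U2af1KO LSK libraries and 0.380 in WT LSK libraries. In LinNeg it was 1.03 under the KO label and 0.0847 under the WT label. The ratio of Gata1 to Spi1, which encodes the myeloid and lymphoid factor PU.1, was 3.30 in U2af1KO LSK libraries and 0.637 in WT LSK libraries, and 8.09 in U2af1KO LinNeg libraries and 0.340 in WT LinNeg libraries. Klf1 over Fli1, a factor of the megakaryocyte fate, was 3.85 in U2af1KO LSK libraries and 0.237 in WT LSK libraries, and 5.64 in U2af1KO LinNeg libraries and 0.239 in WT LinNeg libraries. Gfi1b over its paralog Gfi1, a factor of stem and myeloid cells, was 3.38 in U2af1KO LSK libraries and 1.63 in WT LSK libraries, and 5.50 in U2af1KO LinNeg libraries and 3.40 in WT LinNeg libraries. Each of these 4 ratios was higher under the KO label in both populations. No test was run on a ratio of genes from the same libraries.

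Every count of list or marker genes from here on is to be read beside the shares over all genes tested. Of those, 32.4% rose and 29.2% fell in LSK, and 22.1% rose and 19.3% fell in LinNeg. Their median log2 fold change was 0.04 in LSK and 0.16 in LinNeg. A list of 14 genes took in partners in the GATA1 and LDB1 complex and relatives of its members. It includes Gata2, set as a rival of Gata1 above, and Ldb2, at a mean of only 3.45 in LSK. Of the 14, 4 rose and 8 fell in LSK (median log2 fold change -0.36). In LinNeg 4 rose and 7 fell (median -0.09), a split of 2 higher and 7 lower when recentred on the median gene and of 6 and 6 on equal totals. Tal1, the helix-loop-helix partner of GATA1, stood at 0.32 (SE 0.06) in the authors' deposited table for LSK and at 1.17 (SE 0.20) in the authors' deposited table for LinNeg. The LIM protein gene Lmo2, which bridges TAL1 and LDB1, stood at -0.63 (SE 0.04) in the authors' deposited table for LSK and at 0.49 (SE 0.24, not called) in the authors' deposited table for LinNeg. Both differed between the populations, with a difference of -0.85 (adjusted p = 0.000393) for Tal1 and of -1.13 (adjusted p = 3.23e-05) for Lmo2 by the normal test on DESeq2 estimates. Cbfa2t3, which encodes the corepressor ETO2 of this complex, fell by 0.67 in the authors' deposited table for LSK and fell by 2.04 in the authors' deposited table for LinNeg. Ssbp3, whose product stabilises LDB1, rose, at 0.92 in the authors' deposited table for LSK and 0.97 in the authors' deposited table for LinNeg. Runx1, which encodes a factor of stem and megakaryocyte cells, stood at -0.74 in the authors' deposited table for LSK and at -2.23 in the authors' deposited table for LinNeg.

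The corepressors through which GFI1B, FOG1 and BCL11A act had medians near 0. Of 16, 9 rose and 4 fell in LSK (median 0.16, with 6 and 6 on equal totals), and 3 rose and 2 fell in LinNeg (median 0.06, with 0 and 3 when recentred on the median gene and 5 and 1 on equal totals). Kdm1a, the histone demethylase recruited by GFI1B, was not called, at -0.06 in the authors' deposited table for LSK and -0.18 in the authors' deposited table for LinNeg. Ctbp2, a corepressor that binds FOG1, stood at -0.22 in the authors' deposited table for LSK and at -1.55 in the authors' deposited table for LinNeg, and was called lower in each. The methyl-CpG binding gene Mbd2 stood at 1.25 (SE 0.08, called) in the authors' deposited table for LSK and at 0.39 (SE 0.17, not called) in the authors' deposited table for LinNeg.

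Of the 8 genes of NF-E2's dimer partners and relatives, 2 rose and 2 fell in LSK (median -0.15, with 1 and 3 on equal totals) and 1 rose and 4 fell in LinNeg (median -0.43). Mafk, which encodes the usual small subunit of NF-E2, was not called, at -0.04 in the authors' deposited table for LSK and -0.36 in the authors' deposited table for LinNeg. Mafg, another small subunit, stood at 0.24 in the authors' deposited table for LSK and at -0.82 in the authors' deposited table for LinNeg, a called rise and a called fall. Bach2, a repressor that shares these partners, stood at -2.23 in the authors' deposited table for LSK and at -2.12 in the authors' deposited table for LinNeg. Of 4 platelet genes that NF-E2 activates, 3 fell in LSK (median -1.81) and 2 in LinNeg (median -1.57), with no rise in either. Tbxas1, thromboxane synthase, stood at -2.40 in the authors' deposited table for LSK and at -2.37 in the authors' deposited table for LinNeg.

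Factors that share BCL11A's globin-silencing role were called in both directions, as all genes tested were (32.4% higher and 29.2% lower in LSK, 22.1% and 19.3% in LinNeg). Of 9, 3 rose and 4 fell in LSK (median -0.04) and 3 rose and 2 fell in LinNeg (median 0.28, with 6 and 2 on equal totals). Sox6, a partner of BCL11A at the globin locus, stood at -1.28 (SE 0.10) in the authors' deposited table for LSK and at 2.20 (SE 0.23) in the authors' deposited table for LinNeg. That difference of -3.47 passed the normal test on DESeq2 estimates (adjusted p = 6.53e-42). Nfia, a factor of red cell fate, rose in both, at 1.98 in the authors' deposited table for LSK and 2.23 in the authors' deposited table for LinNeg. The embryonic globins Hbb-y, Hbb-bh1 and Hba-x had no adjusted p in either table and were listed at 0 or at a mean under 1. The adult globin rows Hba-a1, Hba-a2, Hbb-bs and Hbb-bt were likewise listed at 0 or under 1 in both tables, so globin expression cannot be set against these factors here.

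Most of the genes that GATA1 and KLF1 activate rose in both populations. Of 30 tested, 26 rose, 2 fell and 2 were not called in LSK (median 2.66), and 28 rose, 0 fell and 2 were not called in LinNeg (median 2.38). These counts were the same under both recentrings. Tfrc, the transferrin receptor, stood at 2.85 (SE 0.10) in the authors' deposited table for LSK and at 1.83 (SE 0.17) in the authors' deposited table for LinNeg. Epor, the erythropoietin receptor, stood at 2.72 (SE 0.12) in the authors' deposited table for LSK and at 2.61 (SE 0.26) in the authors' deposited table for LinNeg. Rhag, a blood group membrane protein, stood at 3.50 in the authors' deposited table for LSK and at 2.80 in the authors' deposited table for LinNeg. The 2 that fell in LSK were Xpo7, a nuclear export gene of maturing red cells, at -0.65 in the authors' deposited table for LSK and -0.15 (not called) in the authors' deposited table for LinNeg, and Bcl2l1. Bcl2l1, a survival gene of red cell precursors, stood at -0.33 in the authors' deposited table for LSK and at 1.25 in the authors' deposited table for LinNeg.

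Genes that GATA1 represses were mostly lower. Of 7, 1 rose and 5 fell in LSK (median -0.66, with 0 and 6 on equal totals) and 0 rose and 5 fell in LinNeg (median -1.29, with 2 and 5 on equal totals). Gata2 stood at -0.69 (SE 0.07) in the authors' deposited table for LSK and at -2.19 (SE 0.28) in the authors' deposited table for LinNeg. Kit, the stem cell factor receptor, stood at -0.98 (SE 0.05) in the authors' deposited table for LSK and at 0.36 (SE 0.16, not called) in the authors' deposited table for LinNeg. Of 5 genes that GFI1B represses, 2 rose and 3 fell in LSK (median -1.29, with 1 and 3 on equal totals) and 1 rose and 2 fell in LinNeg (median -0.31, with 2 and 2 on equal totals). Meis1 was lower in both, at -2.40 in the authors' deposited table for LSK and -1.52 in the authors' deposited table for LinNeg. Gata3 stood at -1.52 in the authors' deposited table for LSK and at 2.21 in the authors' deposited table for LinNeg, a difference of -3.73 (adjusted p = 2.68e-31 by the normal test on DESeq2 estimates). Of 12 factors that drive other blood fates, 3 rose and 8 fell in LSK (median -0.91, with 1 and 8 on equal totals) and 1 rose and 9 fell in LinNeg (median -1.62). Spi1 stood at -0.48 (SE 0.09) in the authors' deposited table for LSK and at -3.15 (SE 0.15) in the authors' deposited table for LinNeg. Gata2 belongs to 3 of the lists, so their counts are not separate. Spi1, Lyl1, Myb, Mbd2, Gfi1, Meis1 and Gata3 each belong to 2 of them.

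**Figure D4:**
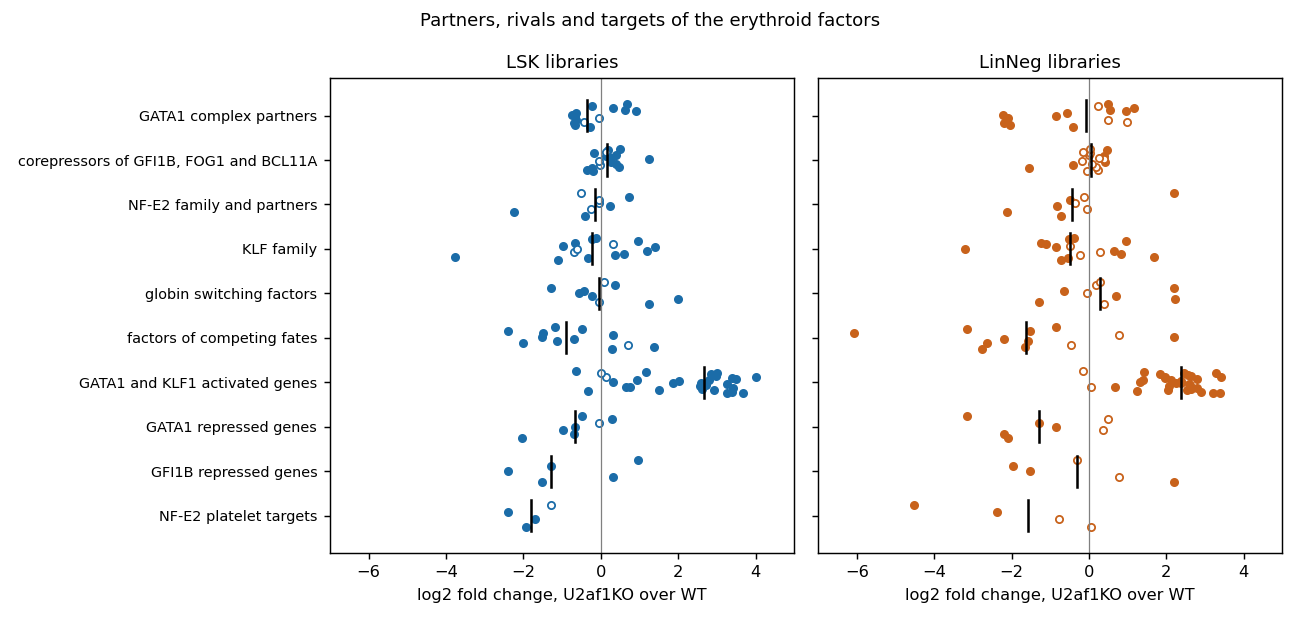
Log2 fold change of U2af1KO over WT for each tested gene of the 10 lists with tested members, LSK left and LinNeg right; filled points are called, open points are not, and black bars are medians. The genes that GATA1 and KLF1 activate lie furthest to the right in both panels.

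Markers of other cells that use these factors also differed between the labels. Erythroid markers rose in 7 of 7 tested genes in LSK, with a summed derived mean of 68569 under the KO label and 10964 under the WT label, and in 6 of 7 in LinNeg, with 53021 under KO and 11793 under WT. Megakaryocyte markers, which share Gata1, Zfpm1, Gfi1b and Nfe2 with red cells, fell in 7 of 9 in LSK (summed 3648 under KO, 13129 under WT) and in 8 of 10 in LinNeg (5088 under KO, 22526 under WT). Mast cell and basophil markers, which also go with Gata1 and Gata2, rose in 8 and fell in 0 of 10 in LSK (summed 7385 under KO, 3271 under WT). In LinNeg 4 of them rose and 6 fell, and their sum of 55742 under KO and 604170 under WT was the greatest of any marker list there. Eosinophil markers rose in 4 of 4 tested in LSK (3864 under KO, 130 under WT) and none of 7 was called in LinNeg (9648 under KO, 22676 under WT). Plasmacytoid dendritic cell markers, which go with Bcl11a, fell in 3 and rose in 1 of 7 in LSK (4643 under KO, 9204 under WT) and fell in 5 and rose in 1 of 7 in LinNeg (6036 under KO, 31928 under WT). B cell markers, which go with Bcl11a too, fell in 2 of 7 in LSK (828 under KO, 1075 under WT) and in 3 of 7 in LinNeg (832 under KO, 1167 under WT). Neutrophil markers rose in 8 of 8 in LSK (165645 under KO, 60358 under WT) and fell in 6 of 7 in LinNeg (3965 under KO, 82522 under WT). Monocyte and macrophage markers rose in 2 and fell in 2 of 7 in LSK (6743 under KO, 7338 under WT) and fell in 7 of 7 in LinNeg (6058 under KO, 48912 under WT). Of 8 markers of stem and progenitor cells, 7 fell in LSK (25176 under KO, 82147 under WT), and 2 rose and 2 fell in LinNeg (6814 under KO, 6742 under WT). The part of any of these cells in the values of the 7 factors was not tested.

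The error of the fold change set Klf1 apart from the other factors in LSK. Its standard error of 0.26 there was 4.01 times the median of 2300 genes with a mean within 1.5-fold of its own, and larger than that of 99.3% of them. The same measure was 1.68 for Gata1, 1.63 for Gfi1b and 0.840 for Nfe2 in LSK. In LinNeg it ran from 0.845 for Ldb1 to 1.53 for Klf1. The genes that GATA1 and KLF1 activate showed this too in LSK: 12 of 29 at a mean of 100 or more had a standard error over 2 times that of genes at their level, against 1.49% of all such genes. Among them were Add2, Alas2, Rhag and Slc4a1. In LinNeg it was 0 of 30, against 1.66% of all genes. Wide errors were not absent from LinNeg. Car1, an erythroid marker outside that list, had a ratio of 4.35 there and of 5.51 in LSK. Some markers of other cells also passed 2 times in LinNeg, among them Epx (5.70), Prg2 (4.79) and Ctsg (3.53). These examples were chosen after their values were seen. Which LSK libraries carried this spread cannot be read from the deposited tables.

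**Figure D5:**
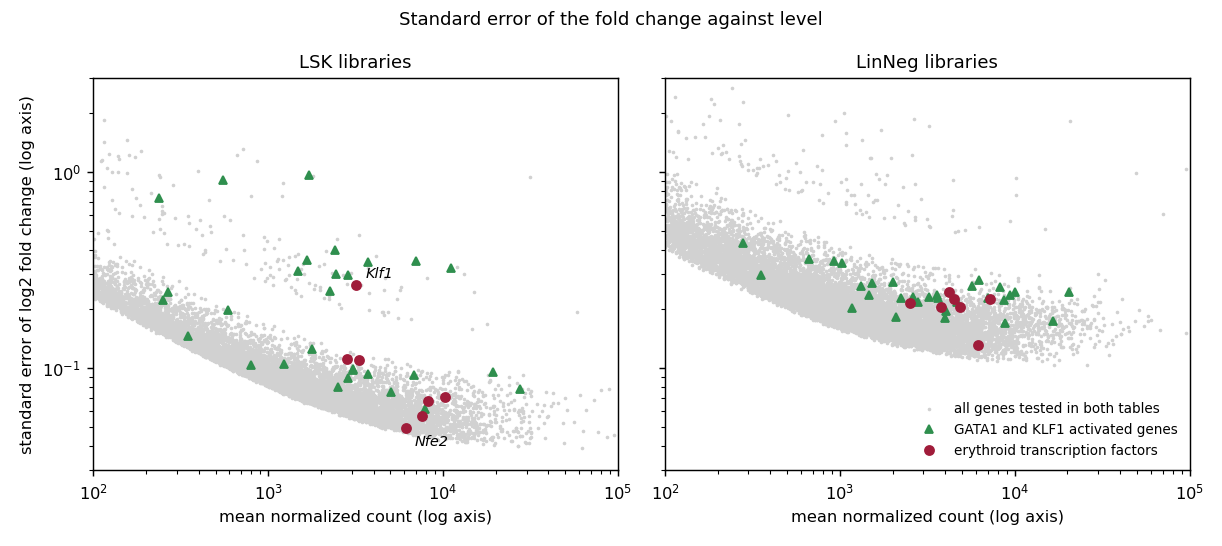
Standard error of the log2 fold change against the mean normalized count (both log axes) for genes at a mean of 100 or more (grey), the genes that GATA1 and KLF1 activate (green) and the 7 factors (red), LSK left and LinNeg right. In LSK, Klf1 and a group of the activated genes lie above the grey cloud, and in LinNeg they lie within it.

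The genes whose pair of fold changes lay nearest to each factor, among 10425 genes whose mean was 100 or more in each table, were found by distance in the 2 log2 fold changes. Because only 2 comparisons enter, likeness here is weak. For Klf1 they were Paqr9 (distance 0.13) and Atp7b (0.16), and for Gata1 they were Ssx2ip (0.13) and Slc25a38 (0.15), a mitochondrial glycine carrier of heme synthesis. Gfi1b lay nearest to E2f4 (0.03) and Tmem14c (0.04), Zfpm1 to Slc12a2 (0.12) and 9430020K01Rik (0.21), and Nfe2 to Nagk (0.005) and Rnf130 (0.02). Ldb1 lay nearest to Sbds (0.002) and Rrp8 (0.009), and Bcl11a to Rab1a (0.005) and Eefsec (0.005).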

How the data were processed

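Per the submitters' processing notes, the authors used HISAT2, SAMtools 1.10, StringTie and DESeq2 with build mm10. Cells were depleted of lineage-positive cells and sorted, and RNA was freed of rRNA before NEBNext Ultra II library preparation, per the labels' protocols. The counting program is not given in the sources used here. Per the file headers, each deposited table of KO against WT holds a mean of normalized counts (a signal), a log2 fold change with its standard error (log2 scale), a Wald score, and a p-value with its adjusted value. The deposited log2 fold changes are rounded to 2 decimals and were recomputed as score times standard error. The 5 rows that name no gene (27.2% of the summed means in LSK, 38.7% in LinNeg) and the 4 with a repeated symbol were not used.

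The edgeR test planned for counts was not used, since the tables hold comparisons; a gene was called at an adjusted p under 0.05 of DESeq2, run by the authors. The difference of effects was tested by dividing it by its SE, the SEs of both tables being added in quadrature (two-sided, against the normal distribution, with p adjusted by Benjamini-Hochberg), and was tested on simulated data for this comparison: with 17397 genes and 200 changed, it recovered 69.5% of log2 differences of 1.0 and 97.5% of 2.0. Coordinates, exon lengths and overlaps came from GENCODE M21. The members, the 11 pathway lists and the 9 marker lists were chosen with earlier results of these data known. Named genes were the 7 factors, U2af1, list members with the smallest adjusted p or the highest mean among those not called, and the 2 nearest genes to each factor; a list gene whose fold change is printed has it from both tables. Tal1, Bcl2l1, Fli1, Pprc1, Rn45s, Car1, Epx, Prg2, Ctsg, Prss34, Mcpt4, Cma1, Tpsb2 and Gzmb were added after values were seen. Alternatives were other filters, thresholds and scalings. The work used scipy 1.17.1, numpy 2.4.6 and pandas 2.3.3 under Python 3.11.15, with figures from matplotlib 3.10.9.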

Additional observations from a re-analysis of the deposited data

Results flagged for a closer look

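Zfpm1 and Nfe2 stood out because the KO effect differed between LSK and LinNeg by a test of the difference itself. Population, the tag BMT and sex cannot be told apart in that difference. For Zfpm1 the effect in LSK was -2.05 relative to that in LinNeg on the log2 scale (adjusted p = 1.85e-16, normal test on DESeq2 estimates), from a rise in both populations. For Nfe2 the difference was 0.75 (adjusted p = 0.00207, normal test on DESeq2 estimates), from a fall in both. Its call was lost with equal totals that left out Rn45s. Among all genes 28.3% differed by the same test. In LinNeg the summed derived mean of neutrophil markers was 3965 under the KO label and 82522 under the WT label. The sums of mast cell and basophil, monocyte and macrophage, plasmacytoid dendritic cell, megakaryocyte, eosinophil and B cell markers were also lower under KO. Single genes did not all follow these sums in LinNeg. Of 10 mast cell and basophil markers, 4 were called higher (Mcpt4, Cma1, Tpsb2 and Gzmb) and 6 lower. None of 7 eosinophil markers was called, and of 7 B cell markers 3 were lower and 4 not called. The erythroid sum was 53021 under KO and 11793 under WT. In LSK the neutrophil sum was 165645 under KO and 60358 under WT, the erythroid sum 68569 under KO and 10964 under WT, and the megakaryocyte sum 3648 under KO and 13129 under WT. Their part in either difference was not tested.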

How the results depend on the processing

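No paired analysis was possible because the deposited tables hold no values per library, and for the same reason leaving out a replicate was not run. Of the alternative values for single factors 117 kept their direction and call, 11 lost the call, 1 gained it and 4 changed sign. Against a change of 2-fold, 3 factors in LSK and 2 in LinNeg passed, against 7 and 6 when tested against no change. With equal totals of the derived means, an alternative planned for the factors and added for the lists after seeing the data, 1 factor in place of 2 differed between the populations. These totals left out Rn45s, and totals that include it were not tried. The signs that changed belonged to values near 0, none of which was called: Bcl11a in LinNeg (0.0115) and the LSK minus LinNeg difference of Ldb1 (-0.27) with equal totals, and those of Klf1 (0.0336) and Gfi1b (0.0112) with the median gene as centre. The median gene stood at 0.04 in LSK and 0.16 in LinNeg, and recentring on it gave 3025 higher and 4116 lower calls in LinNeg, against 3781 and 3307 as deposited and 4737 and 2601 with equal totals. Relative to the median gene the factors ran from -1.69 for Nfe2 to 2.82 for Klf1 in LinNeg. Depth per library is unknown and limits what can be said of low genes. The counts of called list genes stayed within 1.5 times (90 to 93 in LSK, 72 to 84 in LinNeg).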

Other observations

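The other members of the KLF and SP family, which bind CACCC boxes as KLF1 does, were called in both directions. Of 15, 5 rose and 7 fell in LSK (median log2 fold change -0.22), and 4 rose and 8 fell in LinNeg (median -0.48). Over all genes tested, 32.4% rose and 29.2% fell in LSK (median 0.04). In LinNeg 22.1% of all genes rose and 19.3% fell (median 0.16). Klf3, whose product represses many KLF1 targets and whose own gene KLF1 activates, rose in both, at 1.20 (SE 0.09) in the authors' deposited table for LSK and at 0.66 (SE 0.16) in the authors' deposited table for LinNeg. Klf10 fell in both, at -1.12 in the authors' deposited table for LSK and -0.73 in the authors' deposited table for LinNeg. Klf4, a factor of monocytes, stood at -0.62 (SE 0.57, not called) in the authors' deposited table for LSK and at -3.21 (SE 0.30, called) in the authors' deposited table for LinNeg. Klf12 stood at -3.77 in the authors' deposited table for LSK and at 1.68 in the authors' deposited table for LinNeg, a difference of -5.45 (adjusted p = 4.04e-25 by the normal test on DESeq2 estimates).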
